A study of Mus musculus with 14 samples.

Results

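The mirtrons miR-877, miR-1224 and miR-3102 were followed through 5 mature strands, mmu-miR-877-5p, mmu-miR-877-3p, mmu-miR-1224-5p, mmu-miR-3102-5p and mmu-miR-3102-3p, out of 1247 mouse microRNAs (miRNAs) on the array. These names were picked from earlier results of the same arrays, because they were higher in bone marrow after 8 Gy or differed in the nilestriol arm. Those contrasts are therefore described below without a test, and tests are kept for hypothalamus, for the difference between tissues, and for CBLB502 and amifostine. The tissue and drug tests reuse bone marrow arrays of the contrasts that chose the members, so they are not free of that choice. The prefix mmu- is left out from here on.

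The study measured miRNAs on 14 one-colour arrays, 10 of bone marrow and 4 of hypothalamus, from male C57BL/6 mice aged 6 to 8 weeks. Tissue was taken 12 h after 8 Gy of gamma radiation or after 0 Gy. Before that, bone marrow donors had received amifostine (a thiol radical scavenger, 10 mg/kg i.p., 0.5 h ahead), CBLB502 (a flagellin derivative acting on Toll-like receptor 5, 0.2 mg/kg i.p., 0.5 h ahead), nilestriol (a long-acting oestrogen, 150 mg/kg i.g., 48 h ahead) or the vehicle PBS, i.p. or i.g.; hypothalamus came from the amifostine and the i.p. PBS mice. Each combination of tissue, pretreatment and dose was 1 array with the pooled RNA of 3 mice, so an arm, meaning the 8 Gy and the 0 Gy array of 1 pretreatment, has no replicate of its own, and any p-value measures the spread between these pools alone. The arrays lay on 3 slides: bone marrow PBS and CBLB502 with hypothalamus PBS on slide 1, bone marrow amifostine and nilestriol on slide 2, hypothalamus amifostine on slide 3. Both doses of an arm shared a slide, whereas the amifostine and nilestriol effects and their slide cannot be told apart. The tissues of the amifostine conditions lay on different slides, so their difference there is also a difference between slides. In bulk tissue, fewer cells of a type and less RNA per cell cannot be told apart either.

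A mirtron is a short intron that folds into a hairpin. Splicing and debranching release that hairpin, so its processing bypasses the nuclease Drosha, which cuts the primary transcripts of canonical miRNAs, and goes straight to Dicer. The 5p strand of such a hairpin then starts at the intron's 5′ splice site and the 3p strand lies at its 3′ splice site, and the level of the miRNA depends on the host gene's transcription as well as on splicing, dicing and strand choice. In the RefSeq tables of GRCm38.p6, the 3 miRNA genes lie within the protein-coding genes Abcf1 (Mir877), Vwa5b2 (Mir1224) and Arhgef17 (Mir3102).

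The mature strands, from RefSeq, are shown with the seed (bases 2 to 8) in capitals, because the seed is the main determinant of which messages a miRNA binds. miR-3102-5p.2-5p, a further strand of the same hairpin, is added because its values are set against those of miR-3102-5p below.
miR-877-5p (chr17:35960795-35960814, minus strand): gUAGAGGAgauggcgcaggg
miR-877-3p (chr17:35960731-35960752, minus strand): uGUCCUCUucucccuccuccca
miR-1224-5p (chr16:20604452-20604472, plus strand): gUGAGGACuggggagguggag
miR-3102-5p (chr7:100882388-100882409, minus strand): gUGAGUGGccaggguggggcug
miR-3102-5p.2-5p (chr7:100882367-100882387, minus strand): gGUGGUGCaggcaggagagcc
miR-3102-3p (chr7:100882307-100882329, minus strand): gAGCACCCcauuggcuacccaca

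The 5p strands of the 3 mirtrons are rich in G. G makes up 61.9% of miR-1224-5p, 59.1% of miR-3102-5p and 55% of miR-877-5p, against a median of 26.9% over 1679 mature mouse miRNAs in the table. All 3 begin with GU, as an intron does. The seeds of 4 of the 5 strands occur in no other mature miRNA of the table, and that of miR-3102-5p is shared with miR-702-5p, itself a mirtron strand, which was not detected on any of the 14 arrays. The 4 strands of miR-3102 span 103 bases: miR-3102-5p.2-5p starts on the base after miR-3102-5p ends, and miR-3102-3p.2-3p ends on the base before miR-3102-3p starts.

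RefSeq hairpins were matched for 2 of the 3 genes, and are shown with their outermost bases in capitals, since a spliced intron begins with GU and ends with AG.
Mir877 (chr17:35960730-35960814, minus strand): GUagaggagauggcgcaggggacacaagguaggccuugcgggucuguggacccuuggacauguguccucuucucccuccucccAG
Mir1224 (chr16:20604452-20604536, plus strand): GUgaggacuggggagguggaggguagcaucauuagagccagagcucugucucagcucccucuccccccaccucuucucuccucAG
Both are 85 bases long and carry both intron ends. Of the 1005 hairpins in the table, 30 (2.99%) begin with GU and end with AG. The Mir3102 hairpin is named only.

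The array reads these strands through short probes that match the 3′ end of the miRNA and miss the seed in whole or in part. The probes of miR-1224-5p are 10 and 11 bases long, ctccacctcc and ctccacctccc. Those of miR-3102-5p are 12 and 13 bases long, cagccccaccct and cagccccaccctg, and the 4 probes of miR-877-5p run from 10 bases (ccctgcgcca) to 13 (ccctgcgccatct). Over all 1247 miRNAs the median length of the longest probe was 17 bases, and 10 miRNAs (0.802%) had none above 11. The complement of each of these probes was found in no other mature miRNA of the RefSeq table, at full length and without mismatch.

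Levels below are log2 of a miRNA's signal over the array's 75th percentile of the miRNAs detected on every array of the fit, so 0 means a signal equal to that percentile. They compare 1 miRNA between arrays, not 2 miRNAs with each other. Detection is the scanner software's own call, a signal above 3 times its error. It was made for 332 to 403 miRNAs per array in bone marrow and 478 to 582 in hypothalamus, and no spot was saturated. The blood marker miRNAs fixed for bone marrow (miR-223-3p, miR-142-3p, miR-451a, miR-144-3p and miR-150-5p) were detected on every bone marrow array, 5 of 5. The brain markers (miR-124-3p, miR-9-5p, miR-7a-5p, miR-128-3p and miR-138-5p) were detected on every hypothalamus array, 5 of 5. Detection alone did not set the tissues apart, since 4 of 5 blood markers were also detected on each hypothalamus array and 2 of 5 brain markers on each bone marrow array. Their levels are compared below.

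In bone marrow, the 5p strands of miR-3102 and miR-877 were higher at 8 Gy than at 0 Gy in all 5 arms. By contrast, miR-3102-3p was lower and miR-1224-5p differed between arms. miR-3102-5p had log2 levels of 1.52 (amifostine), 1.77 (CBLB502), 1.93 (nilestriol), 2.36 (PBS i.p.) and 1.83 (PBS i.g.) at 8 Gy. At 0 Gy it had 0.50, 0.97, 0.76, 0.92 and 0.92 in the same arms. Every array at 8 Gy lay above every array at 0 Gy. The 8 minus 0 Gy difference was 1.07 ± 0.25 (SD, n = 5 arms), or 2.09-fold, from 0.80 with CBLB502 to 1.44 with PBS i.p.

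miR-877-5p, from the intron of the ribosome-associated ATP-binding protein gene Abcf1, showed the same order at a dimmer signal. Its log2 levels at 8 Gy were -2.66 (amifostine), -2.39 (CBLB502), -2.54 (nilestriol), -2.13 (PBS i.p.) and -2.97 (PBS i.g.). At 0 Gy they were -3.45, -3.04, -3.77, -3.25 and -3.67. Here too no array at 0 Gy reached the lowest array at 8 Gy, although the gap between -2.97 (PBS i.g., 8 Gy) and -3.04 (CBLB502, 0 Gy) was small. The difference was 0.90 ± 0.26 (SD, n = 5 arms), or 1.86-fold, from 0.65 with CBLB502 to 1.23 with nilestriol. With the normexp background correction, which here also added 50 intensity units to every signal, the difference was 0.36. Such a constant makes log2 differences of dim signals smaller, and this strand had median signals of 48.5 (8 Gy) and 25.2 (0 Gy). The effect of the background correction alone was not tested.

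As background over the 371 miRNAs measured in bone marrow, 20.2% were higher at 8 Gy in all 5 arms and 11.1% were lower in all 5, and for 5.93% every array at 8 Gy lay above every array at 0 Gy. The median difference over all of them was 0.09. Since the members were chosen on this contrast, 2 of them being higher in all 5 arms is no finding. The blood markers moved over the same arrays: their summed level was 244 to 373 at 8 Gy and 107 to 188 at 0 Gy, with miR-144-3p at 1.60 ± 0.90, miR-451a at 1.40 ± 0.41 and miR-223-3p at 0.54 ± 0.17 (8 minus 0 Gy, SD, n = 5 arms). miR-142-3p was at -0.03 ± 0.41 and miR-150-5p at -0.60 ± 0.41. The part of these cell type markers in the mirtron differences was not tested.

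**Figure D1:**
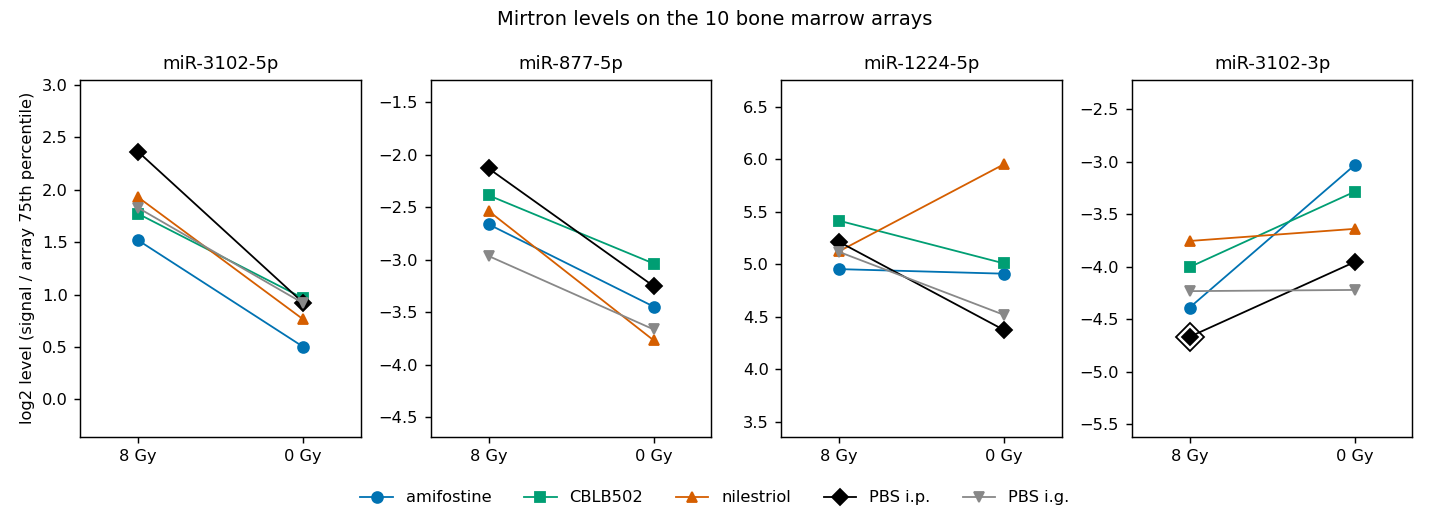
Log2 levels of 4 mirtron strands on the 10 bone marrow arrays, 8 Gy left and 0 Gy right, with 1 line for each pretreatment arm on axes of equal span; the point ringed by a larger diamond was not detected. miR-3102-5p and miR-877-5p lie higher at 8 Gy in all 5 arms, miR-1224-5p is highest in the nilestriol array at 0 Gy (5.95), and miR-3102-3p runs the other way.

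miR-3102-3p, the opposite arm of the miR-3102 hairpin, was lower at 8 Gy in all 5 arms, but by amounts near 0 in 2 of them. Its levels at 8 Gy were -4.39 (amifostine), -4.00 (CBLB502), -3.75 (nilestriol), -4.67 (PBS i.p., not detected) and -4.23 (PBS i.g.). At 0 Gy they were -3.03, -3.28, -3.64, -3.95 and -4.22. The groups overlapped. The difference was -0.58 ± 0.54 (SD, n = 5 arms), from -1.36 with amifostine to -0.01 with PBS i.g., close to its own spread. The strand was dim, with a signal of 10.73 to 20.9 intensity units at 8 Gy and 15.2 to 37.6 at 0 Gy. With the normexp correction and its added 50 units the difference was -0.10.

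miR-3102-5p.2-5p, which lies next to miR-3102-5p in the hairpin, did not share its pattern. It was detected on all 10 arrays, with levels of -1.43 to -0.52 at 8 Gy and -1.62 to -0.70 at 0 Gy. The difference was -0.01 ± 0.44 (SD, n = 5 arms), positive in 2 of 5 arms. miR-3102-3p.2-3p reached detection in 2 of 5 arrays at 8 Gy and 1 of 5 at 0 Gy, at levels of -5.31 to -4.74 and -5.31 to -5.18, at or near the floor.

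A comparison of strands within an array does not depend on a scaling factor for that array. Background and probe GC content can still enter it. The probes of miR-3102-5p hold 75% and 76.9% GC, and those of miR-3102-3p 53.3% and 56.25%. With the normexp correction the mean 8 minus 0 Gy differences were 0.97 for miR-3102-5p and -0.10 for miR-3102-3p. The log2 signal of miR-3102-5p minus that of miR-3102-3p was 5.91 (amifostine), 5.77 (CBLB502), 5.68 (nilestriol), 7.03 (PBS i.p.) and 6.06 (PBS i.g.) at 8 Gy. At 0 Gy it was 3.53, 4.25, 4.40, 4.88 and 5.14. The value of 7.03 rests on a miR-3102-3p signal below detection and is not exact. The 4 other arrays at 8 Gy also lay above all 5 at 0 Gy, by 0.92 to 2.37 within an arm. As this contrast chose the members, these values are a description.

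**Figure D2:**
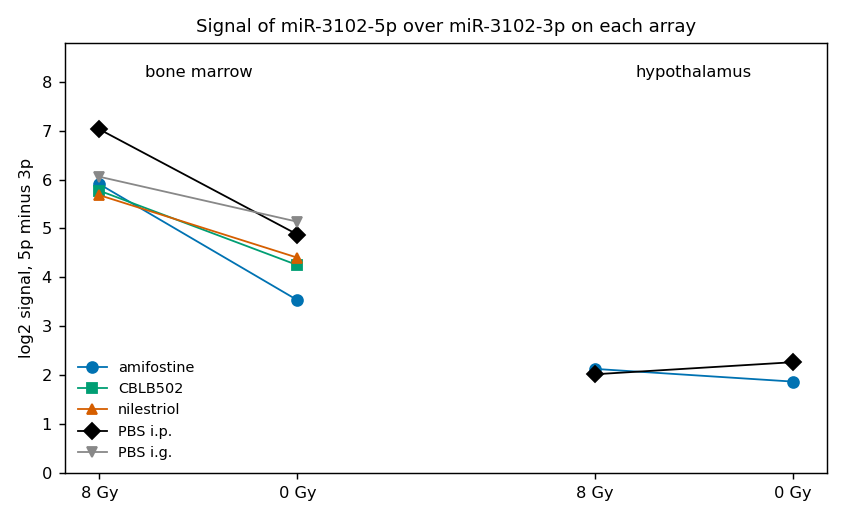
Log2 signal of miR-3102-5p minus that of miR-3102-3p on each of the 14 arrays, with 1 line for each pretreatment arm joining 8 Gy and 0 Gy. The bone marrow arrays run from 3.53 to 7.03 (PBS i.p. at 8 Gy, where miR-3102-3p was not detected) and are higher at 8 Gy in each arm, and the 4 hypothalamus arrays lie between 1.87 and 2.26.

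miR-1224-5p, from an intron of Vwa5b2, was bright on every array. Its dose difference varied between arms, which with 1 array per arm and dose cannot be told apart from variation between pools. At 8 Gy its log2 levels were 4.95 (amifostine), 5.42 (CBLB502), 5.12 (nilestriol), 5.21 (PBS i.p.) and 5.12 (PBS i.g.). At 0 Gy they were 4.91, 5.01, 5.95, 4.37 and 4.52. The arrays at 8 Gy lay close together (SD 0.17, n = 5) and those at 0 Gy were spread (SD 0.62, n = 5). The 8 minus 0 Gy difference was 0.04 (amifostine), 0.41 (CBLB502), -0.83 (nilestriol), 0.84 (PBS i.p.) and 0.60 (PBS i.g.). The mean of 0.21 ± 0.65 (SD, n = 5 arms) was smaller than the spread between arms, and turned to -0.28 with quantile normalization and to -0.20 in the authors' value table. Its opposite strand, miR-1224-3p, was not detected on any of the 14 arrays.

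miR-877-3p reached detection in 2 of 5 bone marrow arrays at 8 Gy and 2 of 5 at 0 Gy, and was therefore not tested there. Its signal was 8.41 to 10.1 intensity units at 8 Gy and 6.80 to 10.5 at 0 Gy, and 1 spot of each of its 4 probes, of 93 to 100 spots, stood well above background. Whether it followed miR-877-5p could not be seen at this signal.

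In bone marrow the separate probes of a strand gave the same mean direction between doses. For miR-877-5p the 4 probes gave mean differences of 0.75 to 1.08 between 8 and 0 Gy, each positive in all 5 arms, with the largest values on the shorter probes. The 2 probes of miR-3102-5p gave 1.19 and 0.95, again positive in all 5 arms. Those of miR-1224-5p gave 0.41 ± 0.74 and 0.12 ± 0.61 (SD, n = 5 arms). The median coefficient of variation between spots of a probe on 1 bone marrow array was 2.26% for miR-1224-5p, 2.46% for miR-3102-5p, 10.6% for miR-877-5p and 20.4% for miR-3102-3p.

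Among the 296 miRNAs detected on all 10 bone marrow arrays, each member was set beside the 295 others by the Pearson correlation of log2 levels. The correlations share arrays, arms and doses and are given as descriptions. miR-3102-5p was most like miR-21a-5p (r = 0.94), miR-34a-5p (0.93), a p53 target, and miR-877-5p (0.89). miR-877-5p was most like miR-3091-5p (0.97), miR-144-3p (0.89), an erythroid miRNA, and miR-34a-5p (0.89). miR-1224-5p was less like the other members, at r = 0.12 with miR-877-5p and 0.21 with miR-3102-5p (Spearman rho 0.37 and 0.41). It was most like miR-3093-3p, miR-6349 and miR-710 (r = 0.97 each).

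These 4 miRNAs are printed because they varied together over the bone marrow arrays. The capitals mark GGGAG, the longest run that all 4 share, looked for after their values were seen.
miR-1224-5p (chr16:20604452-20604472): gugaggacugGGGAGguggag
miR-3093-3p (chr3:88215226-88215247): uguggacaccguGGGAGguugg
miR-6349 (chr1:39186908-39186929): uggaauguGGGAGgggcaugcg
miR-710 (chr8:64514401-64514422): ccaagucuugGGGAGaguugag
GGGAG, searched on the miRNA strand alone, occurs in 86 of 1679 mature miRNAs (5.12%) and in 24 of the 239 detected on all 10 arrays whose sequence was matched (10.0%). The run is covered in full by the probes of miR-3093-3p, by the longer probes of miR-1224-5p and miR-710, and in part by those of miR-6349.

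Nilestriol gave the other contrast that chose the members, and it concerned miR-1224-5p at 0 Gy. There the nilestriol array had 5.95, against 4.37 and 4.52 on the PBS i.p. and i.g. arrays, a difference of 1.51 from their mean. At 8 Gy the nilestriol array had 5.12, against 5.21 and 5.12 on these PBS arrays, a difference of -0.04. The high value thus rested on 1 array. Against the PBS i.g. array alone, the route of nilestriol, the differences were 1.44 at 0 Gy and 0.01 at 8 Gy. The size at 0 Gy also rests on the PBS arrays, since the amifostine (4.91) and CBLB502 (5.01) arrays lay above both of them at that dose.

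The nilestriol minus PBS differences of the other strands were smaller. miR-3102-3p was at 0.70 at 8 Gy and 0.45 at 0 Gy, miR-3102-5p at -0.17 and -0.16, and miR-877-5p at 0.01 and -0.31. Over both doses miR-3102-5p was at -0.16, but at 0.07 with quantile normalization and 0.05 in the authors' value table, and miR-3102-3p was at 0.57, but at -0.024 with the normexp correction. On the nilestriol array at 0 Gy, differences from PBS ran with the GC content of the probe over all 371 miRNAs (Spearman rho 0.51 across miRNAs, against 0.22 at 8 Gy). The other drugs showed this trend against the same PBS arrays. At 0 and 8 Gy, rho was 0.43 and 0.15 with amifostine and 0.45 and 0.39 with CBLB502. With each array's linear trend on probe GC removed, miR-1224-5p with nilestriol differed from PBS by 1.1 at 0 Gy and by -0.09 at 8 Gy. Under the same correction miR-3102-5p was at -0.67 at 0 Gy and -0.23 at 8 Gy, and miR-877-5p at -0.63 and -0.03.

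CBLB502 and amifostine were tested against the same 4 PBS arrays over both doses, so these comparisons share their controls with the nilestriol contrast. With CBLB502, 12.1% of 371 miRNAs passed limma's test at an adjusted p under 0.05 (20 higher and 25 lower), and 0 of the 4 tested members did. The member nearest to the threshold was miR-3102-3p, at 0.62 ± 0.27 (log2 ± SE, adjusted p = 0.134, limma). This dim strand was at 0.15 with normexp and at 1.985 in the authors' value table, and was not called in either. miR-1224-5p was at 0.41 ± 0.31, miR-877-5p at 0.29 ± 0.25 and miR-3102-5p at -0.14 ± 0.17. At 8 Gy and 0 Gy, miR-1224-5p differed from PBS by 0.25 and 0.56 with CBLB502. Over both doses and with the probe GC trend removed, miR-1224-5p was at 0.18, miR-877-5p at 0.11, miR-3102-5p at -0.42 and miR-3102-3p at 0.62.

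With amifostine in bone marrow 0% of 371 miRNAs passed (0 calls with limma, 76 with an unadjusted p under 0.05), and so 0 of the 4 members. miR-3102-5p was lower in both amifostine arrays, at 1.52 against 2.36 and 1.83 with PBS at 8 Gy, and at 0.50 against 0.92 and 0.92 at 0 Gy. Its difference of -0.50 ± 0.17 (log2 ± SE) did not pass (adjusted p = 0.180, limma). miR-3102-3p was at 0.56 ± 0.27, with 0.06 at 8 Gy and 1.06 at 0 Gy. Over both doses it was at 0.12 with normexp and at 1.92 in the authors' value table, called in neither. miR-1224-5p was at 0.13 ± 0.31 and miR-877-5p at -0.05 ± 0.25.

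**Figure D3:**
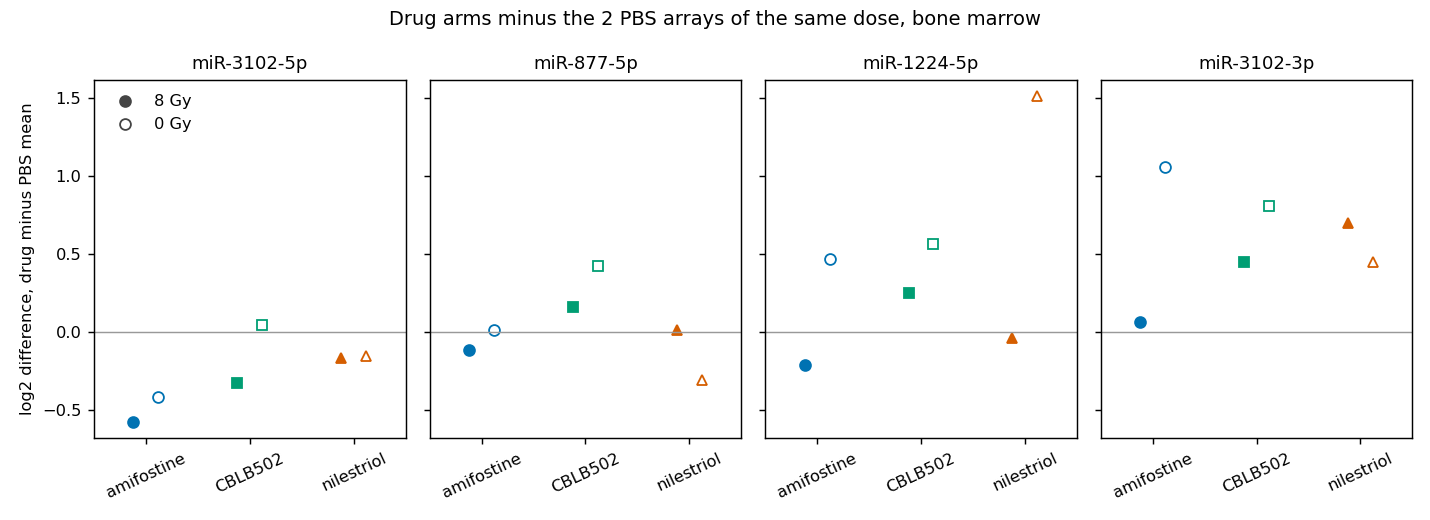
Log2 difference of each bone marrow drug array from the mean of the 2 PBS arrays of its dose, for 4 mirtron strands; filled points are 8 Gy and open points 0 Gy, 1 array each. miR-1224-5p with nilestriol at 0 Gy (1.51) is the largest difference shown.

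The hypothalamus arrays were not used to choose the members, and no member passed the test between doses there. The amifostine arm and the PBS i.p. arm went opposite ways for each of the 4 brighter strands. Of the 544 miRNAs tested, 2.39% were higher at 8 Gy in both arms. The share lower in both arms was not counted, so the share going opposite ways is not given. Among the brain markers, miR-124-3p, miR-9-5p, miR-128-3p and miR-138-5p also went opposite ways, and miR-7a-5p did not. Of the blood markers, miR-150-5p went opposite ways, and miR-142-3p, miR-223-3p and miR-451a were lower at 8 Gy in both arms. miR-3102-5p had levels of -0.17 (amifostine) and -0.56 (PBS i.p.) at 8 Gy, and of -0.59 and -0.11 at 0 Gy. miR-877-5p had -3.41 and -4.30 at 8 Gy, and -3.74 and -4.09 at 0 Gy. miR-1224-5p had 4.32 and 3.82 at 8 Gy, and 3.46 and 4.49 at 0 Gy, so that its 8 minus 0 Gy difference was 0.85 with amifostine and -0.67 with PBS i.p.

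The mean 8 minus 0 Gy differences in hypothalamus were -0.02 ± 0.35 for miR-3102-5p, 0.06 ± 0.25 for miR-877-5p, 0.09 ± 0.56 for miR-1224-5p and -0.02 ± 0.21 for miR-3102-3p (log2 ± SE, adjusted p = 1 each, limma, 4 arrays). Over all 544 miRNAs tested there, 0% passed (0 calls with limma, 0 with an unadjusted p under 0.05). A fit of dose and amifostine on 4 arrays leaves little to estimate the spread from. The absence of calls therefore does not show equal levels at both doses. Whether the dose difference itself differed between tissues was not tested. The differences ran with probe GC content, at Spearman rho 0.44 in the amifostine arm and -0.18 in the PBS i.p. arm across miRNAs. With that trend removed, miR-1224-5p was at 0.54 with amifostine and -0.53 with PBS i.p., and miR-3102-5p at 0.03 and -0.29.

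**Figure D4:**
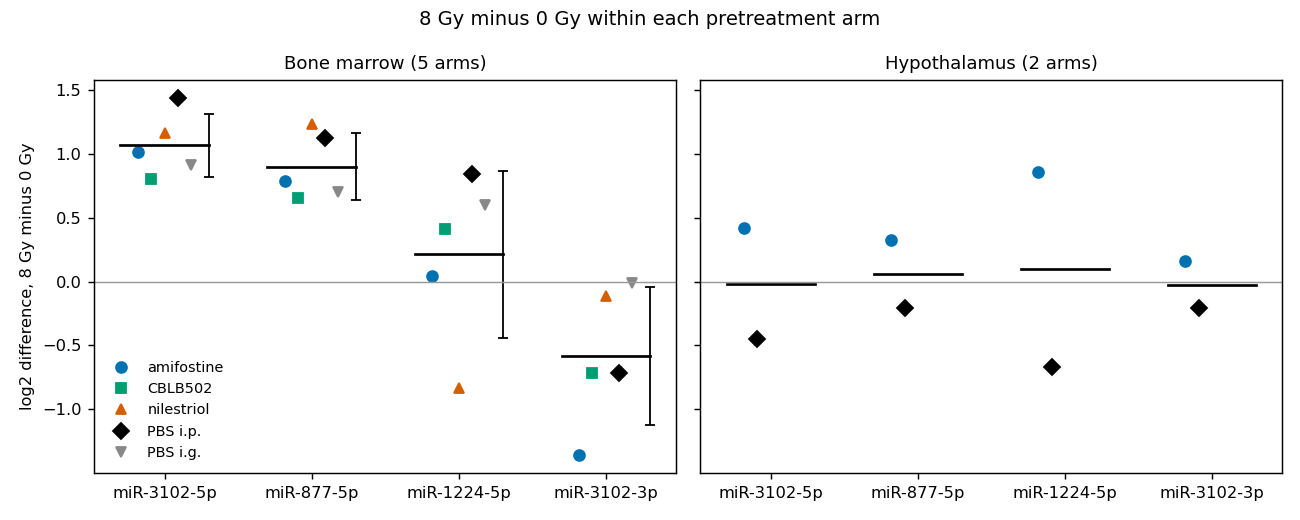
Log2 difference between 8 and 0 Gy within each pretreatment arm, for 4 mirtron strands in bone marrow (left, 5 arms) and hypothalamus (right, 2 arms); horizontal bars are means and the bone marrow whiskers are the SD over arms. miR-3102-5p and miR-877-5p are above 0 in all 5 bone marrow arms, and in hypothalamus each strand has 1 arm on either side of 0.

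Amifostine in hypothalamus likewise gave 0% of 544 (0 calls with limma, 1 with an unadjusted p under 0.05), and no member passed (adjusted p = 1 each, limma). miR-877-5p was at 0.62 ± 0.25 (log2 ± SE), with amifostine minus PBS i.p. differences of 0.89 at 8 Gy and 0.36 at 0 Gy. This value was 0.056 with the normexp correction and 2.40 in the authors' value table, and was not called in either. miR-1224-5p was at -0.27 ± 0.56, miR-3102-3p at 0.10 ± 0.21 and miR-3102-5p at -0.04 ± 0.35. miR-877-3p had no spot well above background on the 4 hypothalamus arrays, so no fold is given for it. Amifostine and slide cannot be told apart here.

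The tissues were compared over the 8 arrays of the 4 conditions measured in both. miR-3102-5p, miR-877-5p and miR-1224-5p were higher in bone marrow than in hypothalamus, and miR-3102-3p was lower. Of the 530 miRNAs tested, 56% passed (84 higher in bone marrow and 213 lower, median difference -0.38), so the 4 of 5 members that passed (3 higher, 1 lower) are to be read against that share, and nothing particular to the mirtrons follows from their count. The tissues also differ by their cell types. The summed level of the blood markers was 126 to 365 in bone marrow and 2.49 to 3.32 in hypothalamus, with 5 of 5 higher in bone marrow by limma. That of the brain markers was 0.473 to 0.709 in bone marrow, where 2 of 5 were detected and miR-124-3p, miR-9-5p and miR-138-5p were not, and 47.2 to 69.6 in hypothalamus, with 5 of 5 lower in bone marrow. Of the muscle markers, 0 of 3 tested passed. The part of cell type in the mirtron differences cannot be told apart from tissue.

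miR-3102-5p had levels of 1.49 (amifostine, 8 Gy), 0.34 (amifostine, 0 Gy), 2.30 (PBS i.p., 8 Gy) and 0.74 (PBS i.p., 0 Gy) in bone marrow. In hypothalamus it had -0.68, -0.99, -0.91 and -0.77 in the same conditions. The tissues did not overlap, and the hypothalamus arrays lay close together (SD 0.14, n = 4). Bone marrow was higher by 2.06 ± 0.36 (log2 ± SE), or 4.16-fold, in 4 of 4 conditions (adjusted p = 0.00725, limma). The bone marrow arrays at 8 Gy are among those that chose this strand, and the difference was 2.17 (amifostine) and 3.22 (PBS i.p.) at 8 Gy and 1.33 and 1.52 at 0 Gy.

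miR-877-5p had -2.70 (amifostine, 8 Gy), -3.61 (amifostine, 0 Gy), -2.19 (PBS i.p., 8 Gy) and -3.43 (PBS i.p., 0 Gy) in bone marrow. In hypothalamus it had -3.92, -4.14, -4.65 and -4.76. Bone marrow was higher by 1.39 ± 0.34 (log2 ± SE), without overlap (adjusted p = 0.0230, limma), by 1.23 and 2.47 at 8 Gy and by 0.52 and 1.33 at 0 Gy in the amifostine and PBS i.p. conditions. Its signal was low in hypothalamus, 14.4 to 34.7 intensity units, and its 10- and 11-base probes had spots well above background on 2 of 4 arrays there, so no fold is given. The difference was 0.66 with the normexp correction and 5.56 in the authors' value table, called in both.

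miR-1224-5p had 4.92 (amifostine, 8 Gy), 4.75 (amifostine, 0 Gy), 5.16 (PBS i.p., 8 Gy) and 4.20 (PBS i.p., 0 Gy) in bone marrow. In hypothalamus it had 3.80, 3.06, 3.47 and 3.82. Bone marrow was higher by 1.21 ± 0.27, or 2.32-fold, in 4 of 4 conditions and without overlap (adjusted p = 0.0169, limma).

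miR-3102-3p had -4.42 (amifostine, 8 Gy), -3.20 (amifostine, 0 Gy), -4.72 (PBS i.p., 8 Gy, not detected) and -4.13 (PBS i.p., 0 Gy) in bone marrow. In hypothalamus it had -2.81, -2.86, -2.93 and -3.04. Bone marrow was lower by 1.21 ± 0.28 on the log2 scale, without overlap (adjusted p = 0.0196, limma). Its 2 probes differed in size, at -0.62 for the 15-base and -1.66 for the 16-base probe. miR-877-3p, near background in both tissues, did not pass (adjusted p = 0.274, limma), although it did with scaling over all miRNAs (1.12, adjusted p = 0.00392) and with quantile normalization (1.08, adjusted p = 0.00233), and miR-3102-5p.2-5p was at -0.08 ± 0.19 (adjusted p = 0.765, limma).

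**Figure D5:**
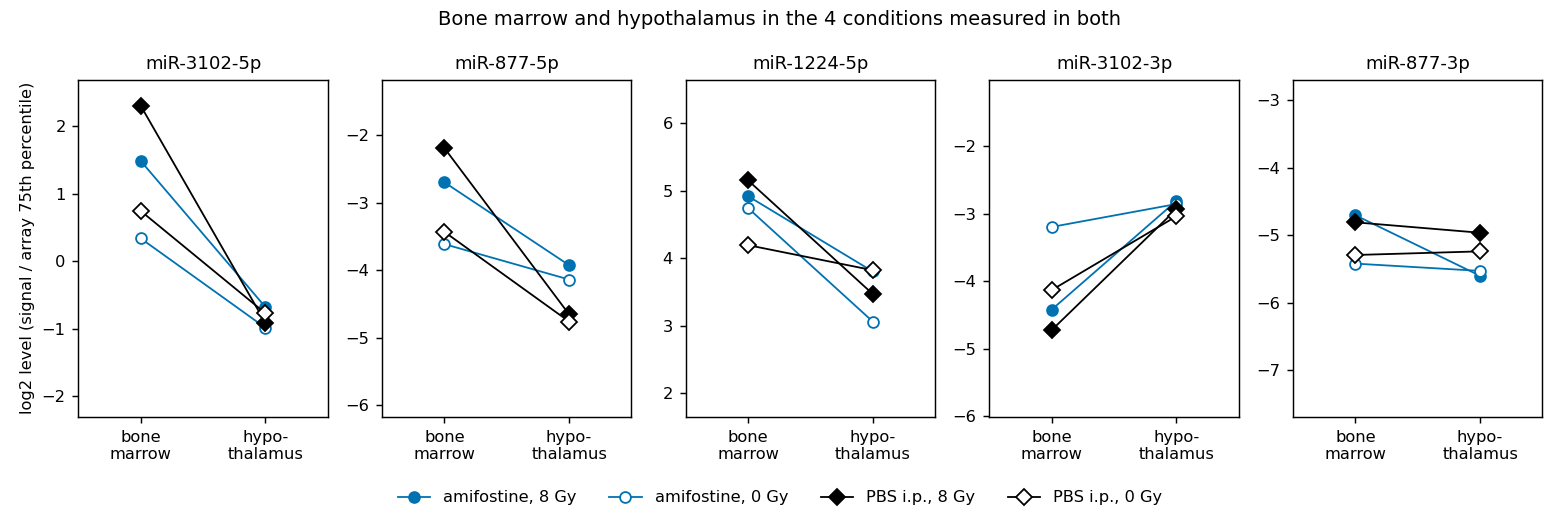
Log2 levels of the 5 mirtron strands in bone marrow (left) and hypothalamus (right), with lines joining the 4 conditions measured in both tissues; filled points are 8 Gy, open points 0 Gy, and all panels span the same range. miR-3102-5p is higher in bone marrow by 2.06 and miR-3102-3p lower by 1.21 with the percentile scaling, and miR-3102-3p turns to 0.21 and 0.23 under 2 other scalings.

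The tissue difference of miR-3102-3p depended on the processing, and was -0.078 with normexp and its added 50 units (adjusted p = 0.625, limma). It turned to 0.21 with the percentile taken over all miRNAs and to 0.23 with quantile normalization, neither called (adjusted p = 0.624 and 0.521, limma), while the median over all miRNAs, -0.38 before, became 0.62 and 0.24. Relative to the median of all miRNAs, miR-3102-3p was at -0.83 with the percentile scaling above and at -0.41 and -0.01 with these scalings, and miR-3102-5p at 2.44, 2.86 and 2.54. With the probe GC trend removed, miR-3102-5p was smaller and kept its call (1.25, adjusted p = 0.0149), and miR-877-5p (0.85, adjusted p = 0.0534) and miR-1224-5p (0.55, adjusted p = 0.0596) lost theirs in limma's test. With the slide as a block, miR-1224-5p (1.03, adjusted p = 0.136) and miR-3102-3p (-1.44, adjusted p = 0.0640) no longer passed limma's test, and miR-3102-5p (2.37, adjusted p = 0.0320) and miR-877-5p (1.90, adjusted p = 0.0266) did. That fit takes the tissue difference from the PBS i.p. arrays of slide 1 alone. Fitted within slide 1, the differences were the same. There miR-3102-5p (adjusted p = 0.0755), miR-877-5p (0.0598) and miR-1224-5p (0.193) did not pass limma's test, and miR-3102-3p (0.0495) did. Without 1 condition, miR-3102-5p kept its call in 4 of 4 settings, and the other 3 each lost theirs in 2 or 3 (adjusted p up to 0.0725).

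Within an array, and so free of a scaling factor, miR-3102-5p minus miR-3102-3p was 5.34 ± 1.49 in bone marrow and 2.07 ± 0.17 in hypothalamus (log2, SD, n = 4 arrays each). It was higher in bone marrow in 4 of 4 conditions, by 1.66 to 5.01. The 5.01 is the PBS i.p. condition at 8 Gy, where miR-3102-3p was not detected in bone marrow. Without it, the values were 4.77 ± 1.19 in bone marrow and 2.09 ± 0.20 in hypothalamus (SD, n = 3 arrays each), with differences of 1.66 to 3.78. An exact permutation test that swaps the tissues within conditions (two-sided) gave p = 0.125 with 4 conditions and p = 0.25 with 3, the smallest that each number allows. The strand comparison can still depend on background and probe GC content. With normexp the tissue differences were 1.76 for miR-3102-5p and -0.078 for miR-3102-3p. With the probe GC trend removed they were 1.25 and -1.28.

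Beside these strands, 9 further strands of miRNAs that bypass Drosha or Dicer were listed: those of miR-1224, miR-702 and miR-1981 (mirtrons), miR-320 and miR-484 (Drosha-independent), and miR-451a (cut by Argonaute2 in place of Dicer). Between tissues, 5 of the 9 were tested, 2 were higher in bone marrow and 1 was lower. As 56% of all 530 miRNAs passed, nothing particular to the list follows from that count. The median of the list was 0.47, the value of miR-702-3p, against -0.38 over all miRNAs. miR-451a was higher by 6.22 ± 0.42 and miR-484 by 0.92 ± 0.24, and miR-320-3p was lower by 0.52 ± 0.11 (log2 ± SE, adjusted p = 0.000225, 0.0281 and 0.0132, limma). The mirtron strand miR-702-3p, detected on all 14 arrays, was at 0.47 ± 0.17 (adjusted p = 0.0712, limma). In the CBLB502, amifostine and hypothalamus comparisons 0 of the listed strands passed, against 12.1% of all miRNAs with CBLB502 and 0% in the others. In bone marrow, their 8 minus 0 Gy differences were 0.19 ± 0.29 for miR-702-3p, 0.05 ± 0.20 for miR-320-3p, 0.24 ± 0.55 for miR-484 and, as given above among the blood markers, 1.40 ± 0.41 for miR-451a, positive in 5 of 5 arms (SD, n = 5 arms).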

How the data were processed

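Total RNA was labelled with Cy3 and hybridized to Agilent mouse miRNA arrays, 1 array per pool. The deposited scanner files hold spot intensity, written by Agilent Feature Extraction 10.7.1.1 with the background subtracted, per the file headers. The authors' deposited value table holds log2 values whose scaling is not given in the sources used here, and it served as an alternative. Processed signals were averaged over the spots of a probe, leaving out outlier spots (4.42 to 5.27% of 49880), and then over probes. Each array was scaled to its 75th percentile, taken over the miRNAs that every array in the fit detected (296 in bone marrow, 471 in hypothalamus, 277 over both). Scaled values below a floor were set to it (the 5th percentile of an array's detected miRNAs, as a median across arrays) before log2. A miRNA was tested where detected on at least 50% of the arrays. The scanner software calls a miRNA detected above 3 times its error.

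limma 3.58.1 (lmFit and eBayes, R 4.3.3) gave two-sided p-values, adjusted by Benjamini-Hochberg over all miRNAs of a comparison at 0.05. The drug fit had dose as covariate, the tissue fit the condition as block. The fits were tested on simulated data. The number of arrays limits the precision. Members and lists were chosen with earlier results of these data known. Named were the 5 strands, the listed non-canonical miRNAs, the marker lists, and the 3 miRNAs most like each member detected on all 10 bone marrow arrays. The further strands of the miR-3102 hairpin were added after their values were seen. Sequences are from RefSeq (GRCm38.p6), matched by name. Alternatives covered background correction (normexp with 50 intensity units added), scaling, floor, outlier spots, value table, GC content, slides, vehicle route and arrays left out. The search for GGGAG and the probe GC trend were added after seeing the data, as were the tissue difference within slide 1 and the strand comparison without the undetected array.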

Additional observations from a re-analysis of the deposited data

How the results depend on the processing

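The counts of miRNAs that passed were the least stable results. With CBLB502 the count was 45, and became 83 with scaling over all miRNAs (13 higher, 70 lower), 68 with an added offset instead of a floor (46 higher, 22 lower), 4 with the authors' value table, 0 against PBS i.p. alone and 111 within slide 1. It ranged from 0 to 83 when single arrays were left out, with 0 without the PBS i.p. array of either dose, the PBS i.g. array at 0 Gy or the CBLB502 array at 8 Gy, 19 without the CBLB502 array at 0 Gy, and 83 without either nilestriol array. With quantile normalization it was 48 (6 higher, 42 lower), and with the probe GC trend removed 40 (25 higher, 15 lower). For bone marrow amifostine the count of 0 became 13 with the offset and 7 with the probe GC trend removed, and lay between 0 and 2 with single arrays left out. For hypothalamus amifostine it became 9 with the value table. The tissue count of 297 ranged from 248 to 316 without single conditions, and its split of 84 higher and 213 lower turned to 242 and 134 with scaling over all miRNAs, 203 and 159 with quantile normalization, 122 and 147 with normexp and 200 and 182 with the value table. None of the 4 members tested for CBLB502 (19 alternatives) and amifostine (18) in bone marrow, or of the 5 in hypothalamus (7), passed in any of them.

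Between tissues miR-3102-5p kept its call in 13 of 14 alternatives (1.18 to 3.47), and lost it within slide 1 (2.37, adjusted p = 0.0755, limma). The slide block and the fit within slide 1 give the same differences and are not separate support. miR-877-5p kept its call in 9 (0.66 to 5.56), miR-1224-5p in 8 (0.55 to 2.63) and miR-3102-3p in 6 (-1.59 to 0.23), and miR-877-3p gained one in 2 (1.12 and 1.08). With the GC trend of the mature sequence removed, miR-877-5p was at 0.83 (adjusted p = 0.0640, limma). miR-3102-3p turned to 0.21 with scaling over all miRNAs and to 0.23 with quantile normalization; the cause was not tested. The described nilestriol difference of miR-3102-3p, 0.57 over both doses, turned to -0.024 with normexp, and that of miR-1224-5p, 0.73, was 1.51 without the nilestriol array at 8 Gy. In bone marrow the 8 minus 0 Gy differences of miR-3102-5p (0.97 to 1.13) and miR-877-5p (0.81 to 0.96) stayed close when single arms were left out, and normexp gave 0.36 for miR-877-5p. The dim strands miR-877-3p and miR-3102-3p are limited by signal over background. Mature sequences were matched for 78.2% of the miRNAs tested in bone marrow and 79.4% in hypothalamus, so the GC check on them was void there and probe GC was used. Testing without the detection filter was not run, since most miRNAs then lie at the floor with no variance. No replicate block was fitted, since each combination of tissue, pretreatment and dose has 1 array; the tissue fit pairs arrays by condition.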

Other observations

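The miRNA most like miR-877-5p over the bone marrow arrays, miR-3091-5p (r = 0.97, Spearman rho 0.99, n = 10 arrays), is also read by short probes rich in G and C, gcgggcccaac and gcgggcccaacc, at 81.8% and 83.3% GC. The probes of miR-144-3p, next in likeness, hold 31.6% GC and 30% GC.

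In hypothalamus, the further strand miR-3102-5p.2-5p differed between 8 and 0 Gy by 0.62 with amifostine and by -0.75 with PBS i.p., beside 0.85 and -0.67 for miR-1224-5p.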
